A study of Mus musculus with 33 samples.

Results

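The distal nephron genes followed here are 10 genes of salt, calcium and magnesium transport: Slc12a1, Kcnj1 and Umod of the thick ascending limb, Slc12a3, Pvalb and Trpm6 of the distal convoluted tubule, and Trpv5, Calb1, S100g and Slc8a1 of the route that carries calcium across distal cells. They are a list of names, drawn up with earlier results of these data known. 9 of the 10 had a probe set paired with that symbol alone, among 17097 genes named on the array, and Trpv5, the apical calcium channel, had none and was not analysed here. The 9 genes had 18 probe sets, and each gene was represented by its brightest, with the others given beside it.

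The mice were the F1 cross of NZB and NZW (BWF1), a strain that develops lupus nephritis, and received an adenovirus that carries mouse interferon-alpha (Adv-IFNα). Kidneys were collected 1, 2, 3, 5, 7 and 9 weeks later, 5 at each time, and 3 kidneys came from untreated BWF1 mice. The series' design text places each array on its own mouse. The methods describe female mice injected intravenously, and no group received an empty vector, so the vector and the interferon it expresses cannot be told apart. Controls in the study are called age-matched, and the labels give no age and no week for the untreated mice. A single untreated group cannot match every week in age, so for the weeks it does not match, time since injection and age cannot be told apart.

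Values are log2 intensities after robust multi-array averaging (RMA), in which 1 unit is a doubling of signal. A gene passed when its adjusted p was below 0.05 in limma's linear model over all 33 arrays, with Benjamini-Hochberg adjustment over 45037 probe sets. Probe sets bind with different strength, so only differences of the same probe set are compared. Whole kidneys were measured, in which fewer cells of a type and less RNA per cell cannot be told apart.

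The thick ascending limb takes up sodium, potassium and chloride through the cotransporter NKCC2 (Slc12a1), while the channel ROMK (Kcnj1) returns potassium to the lumen. The same cells secrete uromodulin (Umod), the most abundant protein of normal urine. The next segment, the distal convoluted tubule, takes up sodium chloride through the thiazide-sensitive cotransporter NCC (Slc12a3) and magnesium through the channel TRPM6, and its early part holds the calcium-binding protein parvalbumin (Pvalb). Further along, calcium enters by TRPV5, is carried through the cell by calbindin-D28k (Calb1) and calbindin-D9k (S100g), and leaves by the sodium-calcium exchanger NCX1 (Slc8a1).

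In the kidneys collected at week 7, all 6 measured genes of the distal convoluted tubule and of the calcium route fell against untreated kidneys, and none of the 3 thick ascending limb genes passed. Pvalb fell most, 8.35-fold, and the other 5 fell between 1.59-fold (Trpm6) and 2.88-fold (Slc8a1). At week 9, 5 of these 6 genes fell, Slc8a1 did not pass, and of the thick ascending limb genes Kcnj1 fell and Umod rose slightly. Against a background of 6.83% of all named genes that fell at week 7 and 13.2% that rose, 6 of the 9 measured genes fell and none rose. At week 9 the background was 7.57% lower and 9.05% higher, and 6 of the 9 fell and 1 rose.

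**Figure D1:**
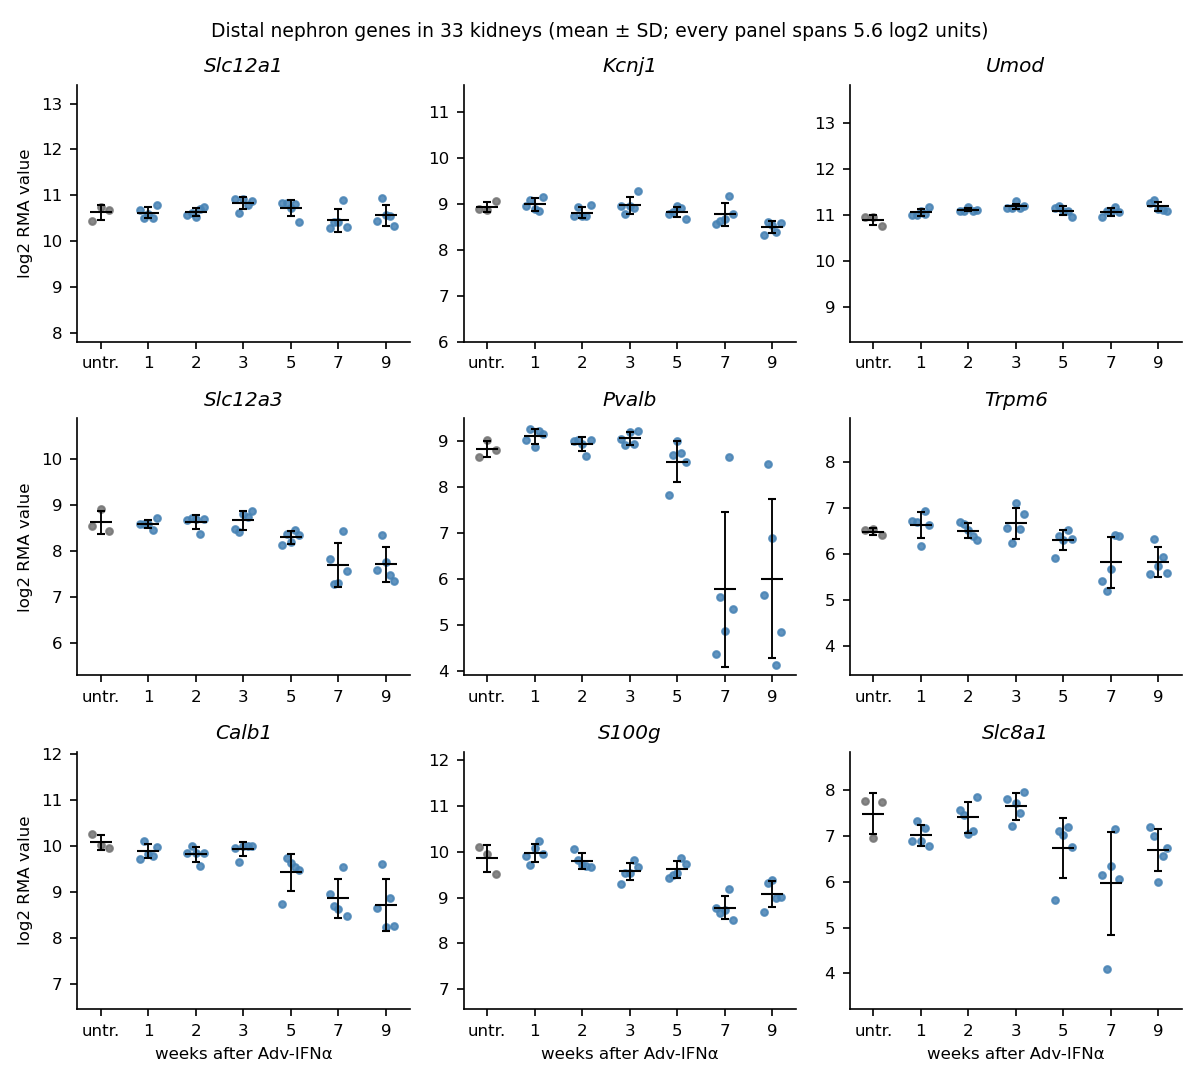
Log2 RMA value of the 9 genes (vertical axes) in each of 33 kidneys by group (horizontal axes, untreated at the left, then weeks after Adv-IFNα). Points are kidneys, the dash and bars are the mean and SD, and every panel spans the same number of log2 units. Pvalb in the middle panel spread between 4.36 and 8.67 at week 7, while Slc12a1 in the first panel stayed between 10.28 and 10.90.

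Slc12a3 encodes NCC, the target of thiazide diuretics. Its values at week 7 were 7.83, 7.27, 7.29, 8.43 and 7.56 in replicates 1 to 5, and at week 9 they were 7.59, 8.34, 7.75, 7.48 and 7.34, against 8.54, 8.90 and 8.43 in the untreated kidneys. All 5 week 9 kidneys and 4 of the 5 week 7 kidneys lay below every untreated kidney. The fifth, replicate 4 of week 7, was level with the lowest of them. The log2 difference from untreated kidneys was -0.95 at week 7 (SE 0.19, limma adjusted p = 9.03e-04) and -0.93 at week 9 (SE 0.19, limma adjusted p = 0.00159). A second, dim Slc12a3 probe set differed by -0.60 and -0.47 and did not pass (limma adjusted p = 0.251 and 0.38).

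Pvalb encodes parvalbumin, a calcium buffer that is also abundant in fast skeletal muscle. At week 7 it had 4.36, 5.61, 4.88, 8.67 and 5.36 on the log2 scale, and at week 9 it had 5.65, 8.50, 6.90, 4.14 and 4.85, against 8.67, 9.02 and 8.82 in untreated kidneys. Replicate 4 of week 7 and replicate 2 of week 9 differed from the untreated mean by -0.17 and -0.34, and the other 8 late kidneys by -1.94 to -4.69. The SD among kidneys was 1.69 at week 7 and 1.73 at week 9, against 0.17 in untreated kidneys. The mean difference was -3.06 at week 7 (SE 0.63, limma adjusted p = 9.58e-04) and -2.83 at week 9 (SE 0.63, limma adjusted p = 0.00278). Because the fit shares its variance over the groups, the SE is smaller than the late spread alone would give. Without replicate 4 the week 7 difference was -3.79, and without replicate 2 the week 9 difference was -3.45. Exact permutation tests of the kidneys, two-sided, gave p = 0.0357 at both weeks, the smallest that 5 kidneys against 3 allow. They were run for all 9 genes, 27 tests in all with week 9 against week 1, with no adjustment. At week 7 Calb1 and S100g also had p = 0.0357, while Slc12a3, Trpm6 and Slc8a1, which passed limma's test, and Umod, which did not, had p = 0.0714 in these exact permutation tests. At week 9 exact permutation gave p = 0.0357 for every gene but Slc8a1 (0.107) and Slc12a1 (0.679). The share of all named genes that would reach this smallest p was not computed, so the number of genes reaching it has no background.

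Muscle attached to a kidney would carry Pvalb signal, so muscle genes were read beside it. The mean of 6 skeletal muscle markers (Ckm, Acta1, Myh4, Actn3, Tnnt3 and Myh1) lay between 2.62 and 2.84 at week 7 and between 2.65 and 2.78 at week 9, against 2.85 to 3.00 in untreated kidneys, near the floor of the array. None of the 6 passed at week 7 and only Myh1 did at week 9, with a difference of -0.49.

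Trpm6 encodes the apical magnesium channel, whose loss causes low blood magnesium in people. Its values were 5.41, 5.19, 5.66, 6.41 and 6.38 at week 7 and 5.55, 6.32, 5.73, 5.93 and 5.57 at week 9, against 6.51, 6.53 and 6.40 in untreated kidneys. All 5 kidneys of week 9 lay below the untreated range, and at week 7 replicates 4 and 5 were at its lower edge. The log2 differences of -0.67 (SE 0.22, limma adjusted p = 0.0363) and -0.66 (SE 0.22, limma adjusted p = 0.0435) were close to the threshold. The week 7 call was lost without week 7 replicate 1, 2 or 3 or any of the 3 untreated kidneys (adjusted p up to 0.117), and at week 9 it held only where week 9 replicate 2 was left out (adjusted p up to 0.114 in the other 7 cases). A second Trpm6 probe set differed by -0.75 and -0.93 and passed at both weeks (limma adjusted p = 0.00756 and 0.00164).

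Calb1 encodes calbindin-D28k, which ferries calcium from the apical channel to the basolateral exit. At week 7 the values were 8.95, 8.69, 8.62, 9.54 and 8.48, and at week 9 they were 8.65, 9.60, 8.24, 8.86 and 8.25, against 10.26, 10.02 and 9.95 in untreated kidneys. The groups did not overlap at either week. The log2 difference was -1.22 at week 7 (SE 0.23, limma adjusted p = 3.73e-04) and -1.35 at week 9 (SE 0.23, limma adjusted p = 1.83e-04), folds of 2.33 and 2.56 lower. Calb1 has 3 further probe sets, and all 3 passed at both weeks with differences between -1.14 and -1.69. At week 5, 2 of these also passed with -0.97 (limma adjusted p = 0.0161) and -0.59 (limma adjusted p = 0.0338), where the brightest had -0.65 and did not pass (limma adjusted p = 0.117).

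S100g encodes calbindin-D9k, a smaller calcium carrier that in mice is found in distal cells and in the intestine. It measured 8.78, 8.67, 8.72, 9.18 and 8.52 at week 7 and 8.69, 9.32, 9.38, 8.99 and 9.01 at week 9, against 10.10, 9.94 and 9.52 in untreated kidneys. Every late kidney lay below every untreated kidney. The difference was -1.08 at week 7 (SE 0.16, limma adjusted p = 2.06e-05) and -0.77 at week 9 (SE 0.16, limma adjusted p = 0.00139). At week 7 S100g had the smallest adjusted p of the 9 genes and a fold of 2.11 lower.

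Slc8a1 encodes NCX1, which extrudes calcium on the blood side and is also expressed in heart and nerve. Its values at week 7 were 6.14, 4.10, 6.35, 7.14 and 6.05, and at week 9 they were 7.19, 6.99, 6.00, 6.56 and 6.74, against 7.76, 6.96 and 7.73 in untreated kidneys. Replicate 2 of week 7 was far below the rest, and the week 9 values overlapped the untreated range. The difference was -1.53 at week 7 (SE 0.39, limma adjusted p = 0.00609), -1.06 without that replicate (limma adjusted p = 0.017), and -0.79 at week 9 (SE 0.39, limma adjusted p = 0.178). A second probe set of Slc8a1 passed at both weeks (-1.32 with limma adjusted p = 9.30e-04 and -1.35 with limma adjusted p = 0.0011), and the dim one left passed at neither.

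Slc12a1 encodes NKCC2, the target of loop diuretics. It had 10.28, 10.41, 10.42, 10.90 and 10.31 at week 7 and 10.44, 10.95, 10.57, 10.55 and 10.34 at week 9, against 10.44, 10.75 and 10.68 in untreated kidneys. The groups overlapped at both weeks. The differences were -0.16 (SE 0.13, limma adjusted p = 0.459) and -0.06 (SE 0.13, limma adjusted p = 0.821).

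Kcnj1 encodes ROMK, which is found both in the thick ascending limb and in the later potassium-secreting segments. Its values were 8.57, 8.63, 8.68, 9.18 and 8.79 at week 7 and 8.32, 8.60, 8.55, 8.39 and 8.58 at week 9, against 8.89, 8.87 and 9.07 in untreated kidneys. At week 9 every kidney lay below the untreated ones, and at week 7 replicate 4 lay above them. The difference at week 9 was -0.46 (SE 0.12, limma adjusted p = 0.0132), and at week 7 it was -0.17 (SE 0.12, limma adjusted p = 0.387). The week 9 call did not hold without untreated replicate 3 (adjusted p = 0.083), and a dimmer second probe set differed by -0.10 (limma adjusted p = 0.805).

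Umod was the only one of the 9 with a higher late mean in its brightest probe set. Its values were 10.96, 11.10, 11.06, 11.18 and 11.06 at week 7 and 11.26, 11.33, 11.13, 11.12 and 11.09 at week 9, against 10.95, 10.97 and 10.76 in untreated kidneys. The week 9 difference of 0.29 (SE 0.09, limma adjusted p = 0.0231) is a 1.23-fold rise, all 5 kidneys lay above the untreated range, and the week 7 difference was 0.18 (SE 0.09, limma adjusted p = 0.176). Its second probe set passed at week 3 (0.40, limma adjusted p = 0.0414), week 5 (0.38, limma adjusted p = 0.0355) and week 9 (0.41, limma adjusted p = 0.00755) and not at week 7 (0.29, limma adjusted p = 0.055). In both probe sets all 5 kidneys of weeks 1, 2 and 3 already lay above every untreated kidney, so the difference was not limited to the late weeks. Without untreated replicate 3, the lowest of the untreated kidneys, the week 9 difference was 0.23 and did not pass (adjusted p = 0.149), nor did it without week 9 replicate 1 or 2 (adjusted p = 0.057 and 0.0514).

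**Figure D2:**
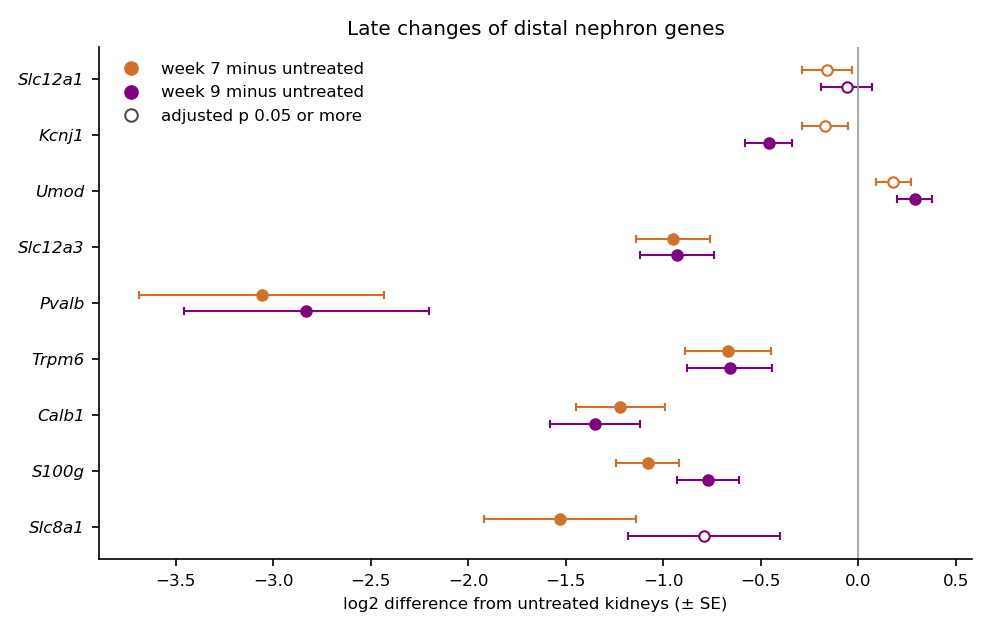
Log2 difference from untreated kidneys (horizontal axis) of the 9 genes (vertical axis) at week 7 (orange, upper point of each pair) and week 9 (purple, lower point), with the SE of limma's fit as bars. Filled points have an adjusted p below 0.05. The points of Pvalb lie at -3.06 and -2.83, while those of Slc12a1 lie at -0.16 and -0.06.

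The 2 salt cotransporters can be set against each other within each kidney, a comparison chosen after their values were seen. Slc12a3 minus Slc12a1, the difference of their log2 values on 1 array, averaged -2.79 ± 0.34 at week 7 and -2.87 ± 0.18 at week 9 (SD, n = 5 each), against -2.00 ± 0.22 in untreated kidneys (SD, n = 3). The shift was -0.78 at week 7 and -0.87 at week 9, and all 5 kidneys of each week lay below all untreated kidneys. Low values were not limited to these weeks. Replicates 1 to 5 of week 5 had -2.71, -2.46, -2.54, -2.36 and -2.08, and week 3 replicate 1 had -2.44. The lowest untreated kidney had -2.25. Since the pair was chosen for these values, the shift is a description and carries no test. The size of the difference itself depends on the 2 probe sets and only its shift between groups can be read.

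**Figure D3:**
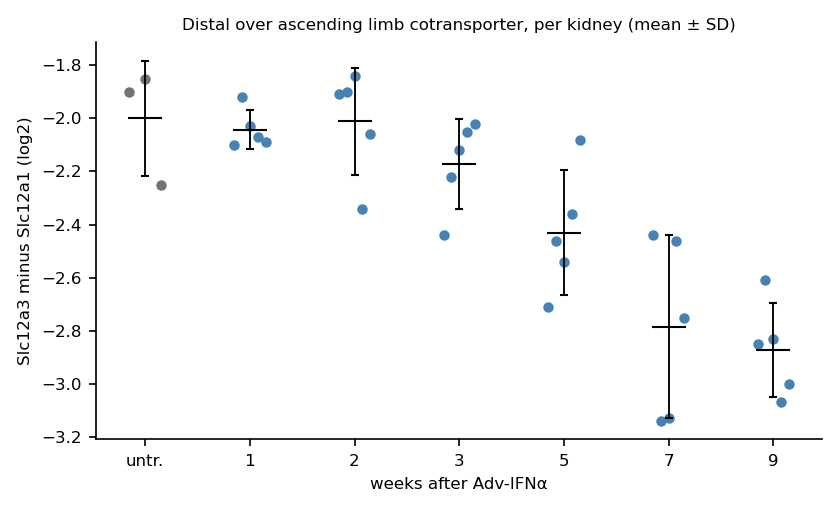
Log2 value of Slc12a3 minus that of Slc12a1 on the same array (vertical axis) by group (horizontal axis, untreated, then weeks after Adv-IFNα). Points are kidneys, and the dash and bars are mean and SD. The late means are -2.79 and -2.87, against -2.00 in untreated kidneys.

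Before week 7 none of the 9 genes passed in its brightest probe set. Against untreated kidneys, their differences ran from -0.47 to 0.27 at week 1, from -0.25 to 0.22 at week 2 and from -0.28 to 0.30 at week 3, where 1.71%, 1.67% and 1.78% of all named genes passed in either direction. The smallest adjusted p of the 9 in those weeks was that of Umod at week 3 (0.30, limma adjusted p = 0.0814). At week 5, where 3.54% of all genes passed, the 6 genes of the distal convoluted tubule and calcium route differed by -0.75 to -0.20. Replicate 1 of week 5 was the lowest of its week in all 6 of these genes. It had Pvalb at 7.83, Calb1 at 8.73, Slc8a1 at 5.59, Slc12a3 at 8.12, Trpm6 at 5.91 and S100g at 9.43. The share of all named genes that were lowest in this kidney was not computed.

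The treated weeks can be compared with each other without the 3 untreated kidneys. At week 7 against week 5, Pvalb (-2.79, limma adjusted p = 0.00134), S100g (-0.83, limma adjusted p = 3.35e-04) and Slc12a3 (-0.62, limma adjusted p = 0.0175) fell, where 5.53% of all genes did. Slc12a3 did not pass without week 7 replicate 2, 3 or 5 (adjusted p up to 0.0753). Without week 7 replicate 4, 7 of the 9 genes fell, the 6 of the distal convoluted tubule and calcium route and Slc12a1 (-0.37, limma adjusted p = 0.023), and without week 5 replicate 1 there were 5. The share of all genes that fell with a kidney left out was not computed, so these counts have no background. At week 9 against week 1, 6 of the 9 genes fell, where 6.11% of all genes did. The log2 differences were -3.10 for Pvalb, -1.17 for Calb1, -0.89 for S100g, -0.88 for Slc12a3, -0.80 for Trpm6 and -0.50 for Kcnj1. This count of 6 was the same whichever week 1 or week 9 kidney was left out. Slc8a1 (-0.32), Umod (0.12) and Slc12a1 (-0.05) did not pass. Between week 9 and week 7 none of the 9 passed, as for nearly all genes, of which 0.0702% did.

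The 5 kidneys of each late week were uneven. Replicate 4 of week 7 was the highest of its week in 9 of the 9 genes, and replicate 2 of week 9 in 7 of the 9, all but S100g and Slc8a1. The share of all named genes that were highest in these kidneys was not computed, so the counts have no background. These kidneys also had the lowest Lcn2 of their weeks. Lcn2, or neutrophil gelatinase-associated lipocalin, is a secreted marker of tubular injury. It measured 9.55, 9.93, 8.53, 4.30 and 9.21 at week 7 and 8.84, 4.82, 5.90, 9.94 and 8.55 at week 9, against 3.75 to 4.37 in untreated kidneys. Havcr1, the injury marker KIM-1, measured 10.06, 10.59, 9.45, 7.54 and 10.83 at week 7 and 10.53, 8.46, 8.43, 9.94 and 10.29 at week 9, against 6.64 to 7.33 in untreated kidneys. Week 9 replicate 3, with the second lowest Lcn2 of its week, had the second highest Pvalb, yet its Calb1 (8.24) was the lowest of the week.

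**Figure D4:**
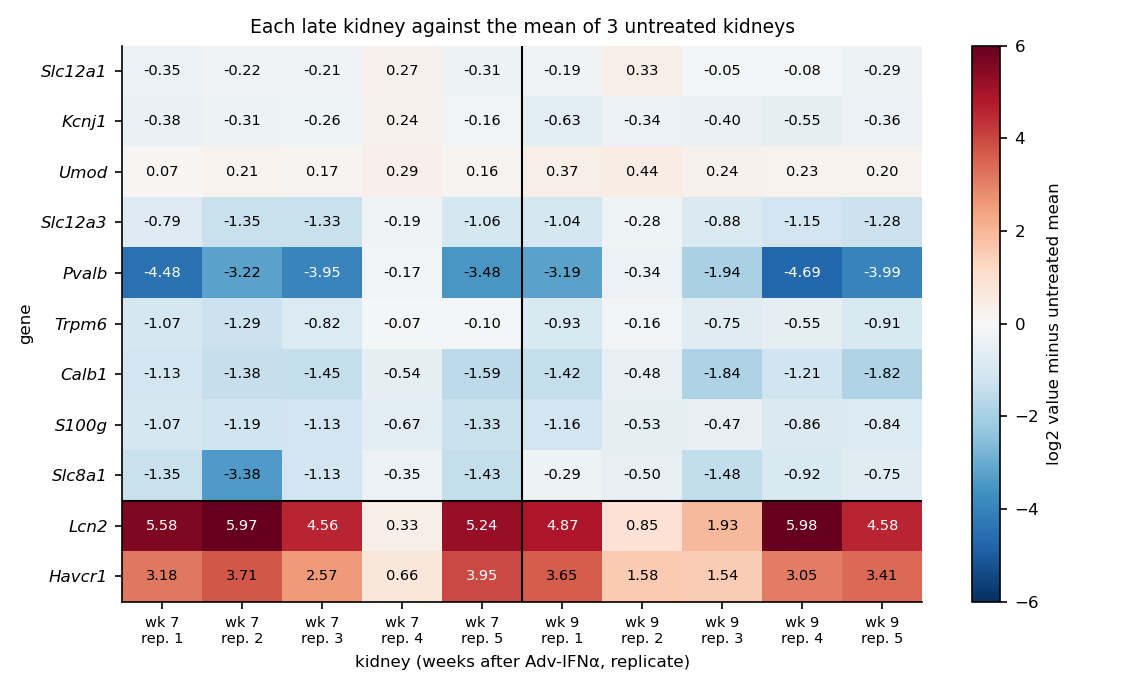
Each of the 10 late kidneys (columns) against the mean of the 3 untreated kidneys, as a log2 difference printed in each cell and shown by colour, for the 9 genes and, under the line, the injury markers Lcn2 and Havcr1 (rows). Week 7 replicate 4 and week 9 replicate 2 are pale in every row of the 9 genes, with Pvalb at -0.17 and -0.34.

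Over the 33 kidneys, the 6 genes of the distal convoluted tubule and calcium route varied together, with Pearson correlations from 0.54 to 0.92 and a median of 0.81 over 15 pairs. The highest were those of Slc12a3 with Pvalb and with Calb1 (0.92 each). Of the thick ascending limb genes, Kcnj1 had correlations between 0.46 and 0.71 with the same 6 genes, and Slc12a1 between 0.37 and 0.65. Umod stood outside this group, with correlations between -0.17 and 0.04 with those 6 genes. These correlations describe kidneys that share the fall of the late weeks, and carry no test.

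Outside the 10 genes, those most like each by correlation over the 33 kidneys were as follows. Pvalb was closest to Wfdc15b and Gpx6 (0.97 each), Slc12a3 to Kl (0.94) and Afm (0.93), and Trpm6 to Tprkb and Macrod1 (0.85 each). Calb1 was closest to Serpina6 (0.90) and Echs1 (0.89), S100g to Mdh1 and Hpd (0.92 each), and Slc8a1 to Osbpl3 and Fip1l1 (0.83 each). Kcnj1 was closest to Oat (0.84) and Trpc1 (0.83), Slc12a1 to Plcb1 and Aldh6a1 (0.79 each), and Umod to Fth1 (0.78) and Pkp4 (0.75). Kl encodes klotho, a coreceptor of fibroblast growth factor that the distal convoluted tubule expresses strongly.

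The promoters of the 3 distal convoluted tubule genes, which fell together, and of Umod, which did not fall, are shown because they differ in outcome within neighbouring segments. Each window runs from 250 bases before to 50 bases after the start of the gene in RefSeq (GRCm38.p6), 5′ to 3′ on the strand of the gene. It was searched on both strands for 4 motifs: GCCNNNGGC, bound by AP-2 factors, of which AP-2β is needed for the distal convoluted tubule in mice; the HNF1 half-site GTTAAT; the estrogen-related receptor site TCAAGGTCA; and the TATA box TATAAA. Capitals mark matches. The windows are Slc12a3 at chr8:94328958-94329257 (plus strand), Pvalb at chr15:78206351-78206650 (minus strand), Trpm6 at chr19:18749480-18749779 (plus strand) and Umod at chr7:119479213-119479512 (minus strand).
Slc12a3: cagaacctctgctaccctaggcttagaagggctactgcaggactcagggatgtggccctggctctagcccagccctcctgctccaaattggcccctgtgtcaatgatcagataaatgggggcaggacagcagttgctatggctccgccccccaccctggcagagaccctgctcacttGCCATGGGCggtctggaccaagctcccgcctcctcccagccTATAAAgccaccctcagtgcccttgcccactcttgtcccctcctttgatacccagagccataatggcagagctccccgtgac
Pvalb: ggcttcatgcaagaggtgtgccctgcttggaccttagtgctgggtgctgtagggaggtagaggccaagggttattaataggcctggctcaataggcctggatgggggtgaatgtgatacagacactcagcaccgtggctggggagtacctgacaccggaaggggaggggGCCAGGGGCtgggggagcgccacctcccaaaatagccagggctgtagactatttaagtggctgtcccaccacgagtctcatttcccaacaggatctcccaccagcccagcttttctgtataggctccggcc
Trpm6: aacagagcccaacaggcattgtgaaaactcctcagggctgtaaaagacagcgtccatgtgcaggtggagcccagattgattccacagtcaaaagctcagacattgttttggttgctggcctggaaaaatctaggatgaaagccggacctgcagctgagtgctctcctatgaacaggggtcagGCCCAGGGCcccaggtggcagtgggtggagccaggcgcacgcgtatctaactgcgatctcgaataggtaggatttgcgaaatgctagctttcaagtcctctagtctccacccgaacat
Umod: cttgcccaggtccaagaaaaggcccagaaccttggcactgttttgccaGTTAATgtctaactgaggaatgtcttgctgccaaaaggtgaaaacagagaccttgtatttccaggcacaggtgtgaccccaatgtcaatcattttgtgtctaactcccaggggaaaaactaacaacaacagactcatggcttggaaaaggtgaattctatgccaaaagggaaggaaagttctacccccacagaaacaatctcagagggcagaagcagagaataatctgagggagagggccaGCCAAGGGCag

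GCCNNNGGC was present in the windows of Slc12a3, Pvalb and Trpm6 with its first base at -73, -81 and -68 from the start, and in that of Umod at 39, beyond the start. It occurred in 16.6% of 32851 such windows of the mouse genome and in 4 of the 9 that could be searched here, Calb1 having none in the table. The windows of S100g and Slc8a1, which also fell at week 7, had no GCCNNNGGC, nor had those of Slc12a1, Kcnj1 and Trpv5. Umod alone had GTTAAT, at -202 (7.10% of all windows). TATAAA stood at -32 in Slc12a3 and also occurred in the windows of Trpv5 and S100g (13.6% of all windows), and TCAAGGTCA in none of the 9 (0.423% of all windows). A match is a description of the letters and was not tested as a binding site.

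Other genes of the same segments were read from lists of known markers. Beside the list counts that follow, 6.83% of all named genes fell and 13.2% rose at week 7. At week 9 these shares were 7.57% and 9.05%. Of 9 measured thick ascending limb genes beyond the members, 4 fell and 1 rose at week 7, and 2 fell at week 9. Egf, the precursor of epidermal growth factor, which the thick ascending limb and distal convoluted tubule make, fell by 1.36 on the log2 scale at week 7 (SE 0.32, limma adjusted p = 0.00289). Ptger3, a prostaglandin E2 receptor, differed by -1.12 at week 7 and -1.00 at week 9, and Ppp1r1a, an inhibitor of protein phosphatase 1, by -0.95 and -0.72. Of the claudins that set paracellular cation transport in this segment, Cldn10 fell (-0.46, limma adjusted p = 0.0297) and Cldn16 rose (0.84, limma adjusted p = 0.0011) at week 7. The median of these 9 genes was -0.39 at both weeks.

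None of the 8 measured kinases and regulators of salt transport (Wnk1, Wnk4, Cul3, Stk39, Oxsr1, Sgk1, Nedd4l and Kcnj10) passed at week 7 or week 9 against untreated kidneys, with medians of -0.03 and -0.13. These proteins act on NCC through phosphorylation, turnover or membrane voltage. Kcnj10, the basolateral potassium channel of the distal convoluted tubule, was lower at week 9 than at week 1 (-0.38, limma adjusted p = 0.0394). Sgk1, a kinase induced by aldosterone, was lower at week 3 than in untreated kidneys (-0.66, limma adjusted p = 0.0194) and higher at week 7 than at week 5 (0.80, limma adjusted p = 3.68e-04).

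Of 10 other genes of calcium and magnesium handling, 3 fell and 1 rose at week 7, and 2 fell and 1 rose at week 9, where the shares of all named genes that rose were 13.2% and 9.05%. Kl fell at both weeks (-0.99 and -0.86), and Pth1r, the parathyroid hormone receptor (-0.61), and Vdr, the vitamin D receptor (-0.45), fell at week 7. Trpv6, the calcium channel related to TRPV5, rose by 0.74 at week 7 (limma adjusted p = 0.00461) and by 0.83 at week 9 (limma adjusted p = 0.00243). Trpm7, the partner of TRPM6, was lower at week 9 (-0.38). Cyp24a1, which degrades vitamin D, did not pass against untreated kidneys and was higher at week 9 than at week 1 (1.32, limma adjusted p = 0.00269).

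Further along the tubule, none of 9 genes of the aldosterone-sensitive principal cells passed at week 7 or week 9 against untreated kidneys, and Aqp3 (-0.59) and Nr3c2 (-0.41) were lower at week 9 than at week 1. Aqp2, the vasopressin-regulated water channel, was higher at week 7 than at week 5 (0.67, limma adjusted p = 0.00328). The list holds the epithelial sodium channel subunits, the mineralocorticoid receptor and aquaporin 2, and its medians were 0.09 at week 7 and -0.19 at week 9. Of 7 intercalated cell genes, 5 fell at week 7 and 3 at week 9. Among them were Slc4a1, the chloride-bicarbonate exchanger AE1 (-1.34 and -1.22), Rhcg, an ammonia channel (-0.87 and -0.79), and Slc26a4, or pendrin (-0.81 and -0.79). The difference between these lists was not tested.

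The fall of the distal genes stood beside changes in other cells of the kidney. Of 8 measured proximal tubule genes 6 fell at week 7 and 2 at week 9, with Slc5a2, the glucose transporter SGLT2, at -1.05 and -0.95. All 5 tubular injury genes rose at both weeks, Lcn2 by 4.34 and 3.64 and Havcr1 by 2.81 and 2.65. Of 7 leukocyte genes 5 rose at both weeks, among them Ptprc, or CD45 (2.16 and 2.30), and Jchain of plasma cells (2.53 and 3.81). The mean of the leukocyte genes lay between 4.86 and 5.96 at week 7 and between 5.22 and 6.43 at week 9, against 3.62 to 4.03 in untreated kidneys. At week 7 1 of 5 podocyte genes fell (Nphs1, -0.59) and at week 9 none did. None of 3 fat genes passed at either week, and of 3 erythroid genes Alas2 rose at week 9 (1.21). Their part in the results of the distal genes was not tested.

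RNA quality and dissection were read from the arrays. The log2 ratio of the 3′ to the 5′ beta-actin control probe sets averaged 1.95 ± 0.11 in treated kidneys (SD, n = 30), against 1.57 ± 0.16 in untreated kidneys (SD, n = 3), and 29 of the 30 treated kidneys lay above all untreated ones. The same ratio for Gapdh was 1.52 ± 0.09 in treated kidneys and 1.51 ± 0.10 in untreated kidneys. With that beta-actin ratio added to the model, Slc12a3, Pvalb, Calb1 and S100g still passed at week 7, and Slc12a3, Calb1 and S100g at week 9, where Pvalb differed by -2.92 (limma adjusted p = 0.0609). Because this ratio nearly separates treated from untreated kidneys, the model cannot cleanly tell it from treatment in these comparisons. None of 4 adrenal cortex genes passed in any comparison. Their mean nevertheless reached 7.81 in a kidney of week 1 and 7.64 in a kidney of week 2. The medians of those weeks were 4.27 and 4.19, and kidneys of the other groups ranged from 4.04 to 4.38.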

How the data were processed

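The deposited values are log2 intensities that the authors made with robust multi-array averaging (RMA) from Affymetrix HT MG-430 PM arrays, 1 colour (biotin), 1 array per kidney. Base 2 is not stated in the table and was read from the range of the values, 0.585 to 13.91. The submitters' processing notes name RMA and Partek and give no version. Trizol was used to extract the RNA and NuGEN Ovation to label it. Array medians lay between 3.97 and 4.10, and no further normalization was applied. RMA makes distributions equal, so changes are relative to the array, and dim probe sets show compressed changes. Arrays have no read depth, and their number limits the precision.

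After 104 control probe sets were left out, 45037 probe sets of 33 arrays entered a model with 7 group means in limma 3.58.1 (R 4.3.3, lmFit and eBayes, 26 residual degrees of freedom). Of these, 28898 had 1 gene symbol, 551 had several and 15588 were unnamed here. Only probe sets with 1 symbol were used, and the highest mean over 33 arrays chose the representative. Single genes were also tested by exact permutation (scipy 1.17.1). The procedure was also run on simulated data with independent normal noise and, for each probe set, the same SD in every group. That setting does not cover the larger late spread of genes such as Pvalb. Named genes are the members, up to 3 passing genes of each list by size with those a sentence turns on, and the 2 genes most correlated with each member. The members and lists were chosen with earlier results of these data known. Alternatives were the 2 groups alone, array weights, dim probe sets left out (mean below 5), median centring, averaging all probe sets of a gene, a trended and robust prior, adjustment for the beta-actin ratio, the replicate number as a block and each replicate left out.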

Additional observations from a re-analysis of the deposited data

Results flagged for a closer look

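Among 54 groups of 5 kidneys (9 genes at 6 weeks), 8 held a kidney that stood apart from the other 4 by Dixon's criterion, where chance gives about 1 in 20. The 9 genes share the same arrays and many vary together, so the 54 groups are not independent. The share over all named genes was not computed. In replicate 1 of week 5, Calb1 (8.73, others 9.48 to 9.73) and Slc8a1 (5.59, others 6.75 to 7.19) were both low. In replicate 4 of week 2, Slc12a3 (8.37, others 8.67 to 8.71) and Pvalb (8.69, others 8.94 to 9.04) were both low. Slc12a1 was high in replicate 4 of week 7 (10.90, others 10.28 to 10.42) and low in replicate 5 of week 5 (10.43, others 10.72 to 10.83). Umod was high in replicate 3 of week 2 (11.17, others 11.09 to 11.11), and Calb1 was low in replicate 2 of week 3 (9.66, others 9.96 to 10.01).

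The change from untreated kidneys differed between treated weeks, by limma's contrast of the weeks themselves, in 9 cases. Week 9 minus week 1 was -3.10 for Pvalb, -1.17 for Calb1, -0.89 for S100g, -0.88 for Slc12a3, -0.80 for Trpm6 and -0.50 for Kcnj1. Week 7 minus week 5 was -2.79 for Pvalb, -0.83 for S100g and -0.62 for Slc12a3.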

How the results depend on the processing

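Pvalb, Calb1, S100g and Slc12a3 kept their direction and their call at week 7 under every alternative tried, with week 7 differences of -3.79 to -2.71, -1.42 to -1.13, -1.25 to -0.96 and -1.17 to -0.77. At week 9 Calb1, S100g and Slc12a3 also kept theirs, and Pvalb lost its call only on adjustment for the beta-actin ratio. The count of genes that passed at week 9, 7, became 4 with only the 2 groups compared, 3 with the beta-actin covariate, and 4 to 6 when single kidneys were left out (4 without untreated replicate 3). At week 3 it was 1 (Umod) in place of 0 with dim probe sets left out, with all probe sets of a gene averaged or with a trended and robust prior, and at week 5 it was 2 (Calb1 and Umod) in place of 0 with the averaged probe sets. Week 7 minus week 5, with 3 genes, ranged from 2 to 7 when single kidneys were left out. The share of all named genes that passed under each alternative was not computed, so these counts have no background. At week 7 the call of Slc8a1 was lost with only the 2 groups (-1.53, adjusted p = 0.103) and with the covariate (-1.52, adjusted p = 0.0743), as was that of Trpm6 (-0.67, adjusted p = 0.171, and -0.60, adjusted p = 0.245), also lost with array weights (-0.68, adjusted p = 0.0851). At week 9 Kcnj1, Umod and Trpm6 were lost with only the 2 groups (-0.46, 0.29 and -0.66, adjusted p = 0.0725, 0.208 and 0.0574) and with the covariate (-0.49, 0.30 and -0.59, adjusted p = 0.119, 0.176 and 0.342). Array weights lost Umod (0.28, adjusted p = 0.0688) and Trpm6 (-0.68, adjusted p = 0.0802), median centring Trpm6 (-0.62, adjusted p = 0.0611) and averaged probe sets Kcnj1 (-0.28, adjusted p = 0.127). Averaged probe sets also gained calls, for Umod at week 7 (0.23, limma adjusted p = 0.0382) and for Slc8a1 at week 9 (limma adjusted p = 0.0204). The causes were not tested.

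Only differences that had not passed changed sign. Between week 9 and week 7, Slc12a3 (0.02) became -0.00 with the covariate, Trpm6 (0.01) became -0.09 and Calb1 (-0.13) became 0.04 with the averaged probe sets. With single kidneys left out these ran from -0.14 to 0.21, -0.15 to 0.16 and -0.35 to 0.04, and Pvalb ran from -0.39 to 0.96. Week 7 minus week 5 of Umod ran from -0.06 to 0.00. Slc12a1 at week 9 ran from -0.15 to 0.01 against untreated kidneys and from -0.14 to 0.01 against week 1.

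With the replicate block, 6 genes passed at week 7, 7 at week 9, 6 between week 9 and week 1 and 3 between week 7 and week 5, as without it. The labels do not say that a number marks a shared animal or day, 11 of 93 same-numbered pairs correlated above 0.1 (median -0.006), and 10 of 33 arrays correlated best with their own number. With 3 untreated kidneys, small differences such as those of Umod, Kcnj1 and Trpm6 are at the limit of this design.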
